A study of Arabidopsis thaliana with 10 samples.

Results

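Dark-grown Arabidopsis seedlings of a DIG1 line and of a GFP line were compared 4 h after dexamethasone was added, across every gene in the RPKM table of that experiment (17371 genes, 4 of the 10 libraries of the series). The samples were chosen by their labels, not by any measured value. Both groups were whole Col-0 seedlings grown in darkness to an age of 3 d and given 10 µM dexamethasone, a synthetic glucocorticoid used in plants to switch on transgenes, for 4 h without light. Each group had 2 libraries of polyA RNA. A further group of 2 libraries, from a DIG2 line treated in the same way, shared the fit and is used where the 2 DIG lines are set against each other. Light-grown GFP and DIG1 seedlings, 10 d on the plate and given 500 nM dexamethasone throughout, are set beside the 4 h values at the end; the growth text prints that unit as mM and the treatment label as nM. The series title calls the DIG proteins transcription factors that respond to abscisic acid (ABA). Every group received dexamethasone, so an untreated sample of either line was not analysed here, and differences that the lines had before treatment cannot be told apart from those that came with it. The labels used here name no promoter for the transgenes, and nothing in them says that replicates were separate cultures, so p-values measure the spread between these libraries, which may be technical. Reads recovered from the RPKM steps came to 13122281 and 12171972 in GFP, 9561094 and 9920630 in DIG1 and 15195106 and 12545183 in DIG2, so the DIG1 libraries were the shallowest, and the part of depth in the results was not tested.

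A seedling kept in the dark grows a long hypocotyl with an apical hook and closed cotyledons that hold etioplasts, plastids stocked with protochlorophyllide for the moment light arrives. Phytochrome-interacting factors, which are bHLH proteins, keep this programme going, while HY5 and several B-box proteins drive greening once light is seen. Auxin, gibberellin, ethylene and brassinosteroid set growth and hook shape in darkness, the wall is loosened by expansins and by xyloglucan endotransglucosylase/hydrolases (XTH), and metabolism runs on stored sugar, amino acids and lipid. ABA acts through PYR/RCAR receptors, PP2C phosphatases, SnRK2 kinases and the ABF bZIP factors, many of which bind G-box-like elements with an ACGT core.

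The transcript of DIG1 (AT3G48510, chr3:17967354-17968590 in TAIR10.1, minus strand) measured 0.551 and 1.43 RPKM in the GFP libraries and 1716 and 1438 RPKM in the DIG1 libraries. RPKM divides a gene's reads by its length and by the size of the library, so it sets genes of different length on one scale. The groups lay far apart, with a log2 change of 10.11 ± 0.23 (standard error, limma adjusted p = 1.75e-08). The sample titles print a different locus, AT3G45810, for DIG1. DIG2 itself, AT5G50360, measured 0.876 and 0.768 RPKM in GFP and 2.54 and 1.23 RPKM in DIG1 and did not pass the test.

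By limma on log2(RPKM + 0.5), with a Benjamini-Hochberg adjusted p under 0.05, 522 genes (3.01% of those tested) were higher in DIG1 and 962 (5.54%) were lower. The words rose and fell are kept for genes past that threshold. Most changes were small: 447 of the genes that rose and 699 of those that fell changed by under 2-fold, and the median change was 1.56-fold up and 1.69-fold down. The median log2 change of all genes was 0.00. The split between the directions depends on how libraries are scaled: on reads recovered from the RPKM steps and scaled by the totals of the listed genes, 937 rose and 775 fell, or 54.7% up instead of 35.2%. Fits that leave out a GFP or DIG1 library had fewer samples and fewer calls. Dropping GFP replicate 1 left 254 up and 493 down, dropping GFP replicate 2 left 141 up and 335 down, dropping DIG1 replicate 1 left 230 up and 587 down, and dropping DIG1 replicate 2 left 230 up and 454 down. Counts of list members are therefore followed by their range over those 4 fits, and a gene described below kept its call in all 4 unless the text says otherwise. For all 522 and all 962 called genes, both DIG1 libraries lay on the same side of both GFP libraries. Leaving out a library or changing the pseudocount could therefore not reverse a direction. None of the 487 called genes that the text could name changed direction in any setting tried, and 148 of them kept the call in all 4 of those fits.

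The 17371 genes were read through 136 lists and families, which held 4275 of them. Lists with many lower members included those of dirigent proteins, B-box factors, carbon fixation, XTH enzymes, lignin and secondary wall genes, glucosinolate genes and epidermal genes. Gibberellin genes, UDP-glycosyltransferases and genes of dark starvation had larger shares of higher members. Ribosomal proteins, histones and proteasome subunits had at most 1 called member each. Lists are described by their counts and, for most, the median log2 change, against 3.01% higher, 5.54% lower and a median of 0.00 over all genes, and no test of lists was run. Where limma called 0 members of a list higher, the counts at an unadjusted p under 0.05 were also low: 0 for lignin, B-box, dirigent and ethylene genes, 1 each for glucosinolate, epidermal, carotenoid and arabinogalactan genes, 2 for tetrapyrrole genes and 3 for ER chaperones. Voom on reads scaled by listed totals called 1 carotenoid, 1 arabinogalactan and 2 tetrapyrrole genes higher and 0 in the other lists just named.

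**Figure D1:**
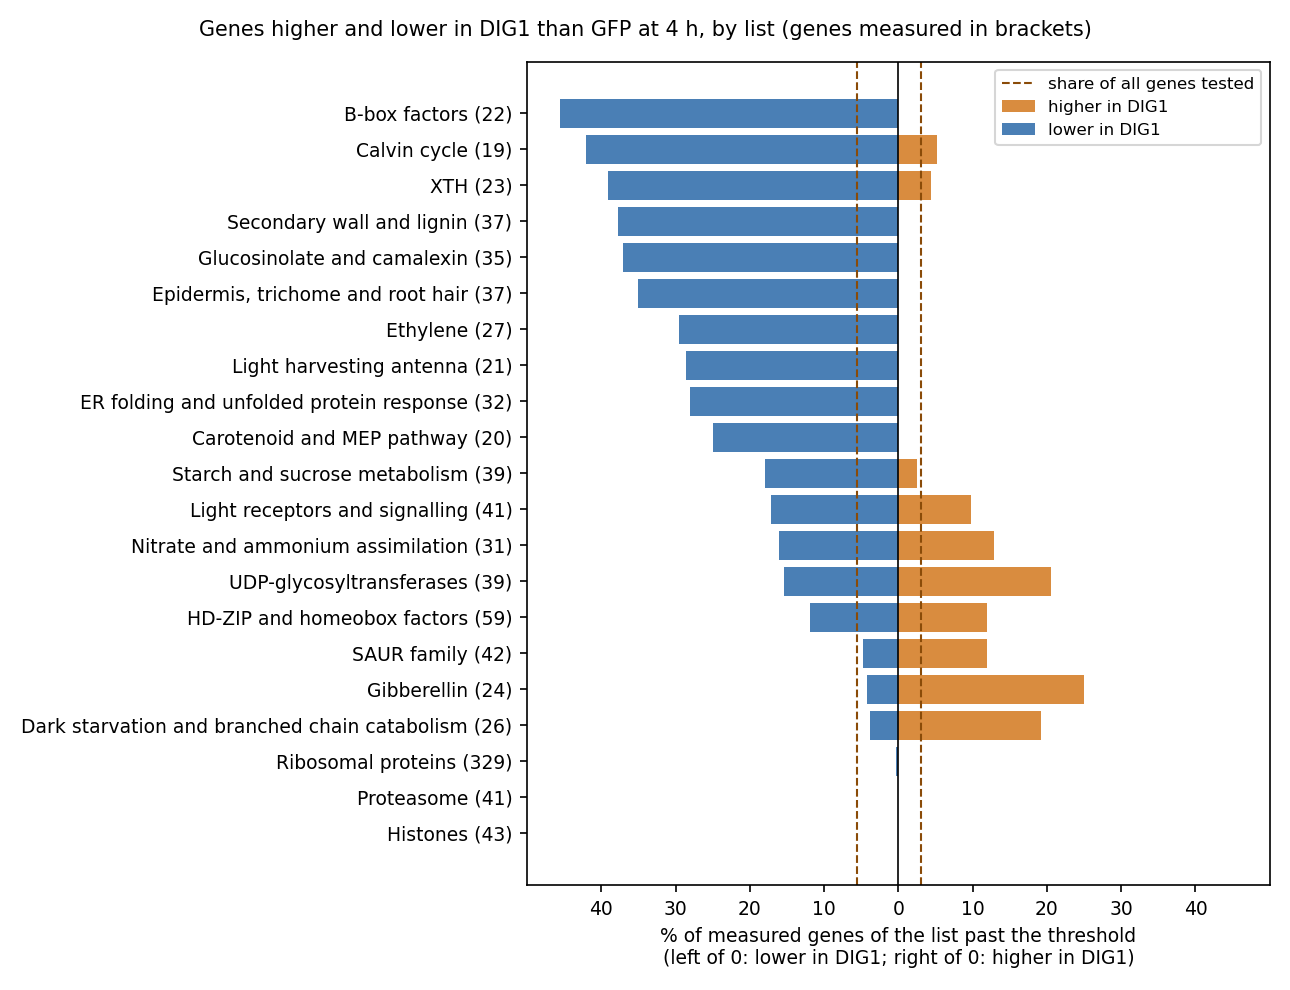
Share of the measured genes of 21 lists and families that were higher (right, orange) or lower (left, blue) in DIG1 than in GFP at 4 h, in percent, with the number of genes measured in brackets; the dashed lines are the shares over all genes tested, 3.01% higher and 5.54% lower. The blue bars of B-box factors, carbon fixation, XTH, lignin and glucosinolate genes run far past the line, while ribosomal proteins, proteasome and histones have bars at or near 0. The figure shows only part of the 136 lists and families, and dirigent proteins, with 50% lower, are not drawn.

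Promoter sequence is shown for 4 genes that moved strongly, since the series concerns proteins said to respond to ABA and ABA factors bind ACGT elements. The window read for each gene ran from 250 bases before its annotated start to 50 bases after, from the TAIR10.1 genome (RefSeq), and 17304 of the genes had one. The runs below are the 250 bases before the start, 5′ to 3′ on the gene's strand. Capitals mark a G-box (CACGTG) in RD20 (chr2:14146556-14146805, minus strand) and LHCB2.3 (chr3:10255656-10255905, plus strand), the 2 most strongly lowered genes with a symbol that carry it. In PER4 (chr1:4975706-4975955, minus strand) and OPT1 (chr5:22652465-22652714, plus strand), the 2 most strongly raised genes with a symbol that carry an I-box (GATAAG or its reverse complement), capitals mark that element. The I-box has no ACGT core and is among several motifs that were searched.
RD20: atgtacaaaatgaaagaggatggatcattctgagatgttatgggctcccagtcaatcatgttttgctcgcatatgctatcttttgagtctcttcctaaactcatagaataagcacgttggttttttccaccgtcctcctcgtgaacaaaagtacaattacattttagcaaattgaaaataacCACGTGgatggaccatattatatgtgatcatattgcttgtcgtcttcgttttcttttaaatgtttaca
LHCB2.3: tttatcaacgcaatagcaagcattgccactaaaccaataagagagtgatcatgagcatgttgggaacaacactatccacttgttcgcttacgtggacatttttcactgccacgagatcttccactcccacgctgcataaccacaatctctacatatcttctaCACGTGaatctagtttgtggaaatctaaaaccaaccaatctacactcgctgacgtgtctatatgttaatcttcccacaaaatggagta
PER4: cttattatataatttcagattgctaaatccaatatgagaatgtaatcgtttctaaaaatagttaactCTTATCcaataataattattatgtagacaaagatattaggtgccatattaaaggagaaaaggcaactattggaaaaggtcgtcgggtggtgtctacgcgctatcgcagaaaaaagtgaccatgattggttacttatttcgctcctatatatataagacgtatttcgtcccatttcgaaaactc
OPT1: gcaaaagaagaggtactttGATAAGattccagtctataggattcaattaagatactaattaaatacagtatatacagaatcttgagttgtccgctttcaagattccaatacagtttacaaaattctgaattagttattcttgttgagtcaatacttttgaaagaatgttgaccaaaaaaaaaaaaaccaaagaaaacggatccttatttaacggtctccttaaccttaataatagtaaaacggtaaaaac

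The G-box begins 68 bases before the start of RD20, which has another match after the start, and 88 bases before that of LHCB2.3. A G-box, searched on both strands, lay in the window of 8.81% of all genes, 12.2% of those that fell and 12.8% of those that rose. An ABA response element written as ACGTGTC or ACGTGGC lay in 9%, 13.6% and 10.9%, and some of its matches overlap a G-box. Among genes that fell by 2-fold or more, the G-box lay in 13.3% and the ABA element in 11%. Among those that rose by 2-fold or more, the shares were 10.7% and 8%. The I-box was present in 15.1% of all windows, 14.6% of those of genes that fell and 24.1% of those of genes that rose. The site II element (TGGGCC), typical of ribosomal and other housekeeping genes, was rarer in both directions, at 9.04% of genes that fell and 10.3% of genes that rose against 19.8% of all. The telo box (AAACCCTA) followed the same order, at 1.46% and 2.68% against 5.49%. These shares describe letters in a window and were not tested.

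Of 37 lignin and secondary wall genes measured, 14 fell (37.8%, 6 to 10 in the fits without a library, lowest without GFP replicate 2) and 0 rose, and the median log2 change of the list was −0.40. OMT1, the caffeate O-methyltransferase that makes syringyl and flavonol precursors, measured 121 and 122 RPKM in GFP and 35.8 and 30.3 RPKM in DIG1. It fell 3.66-fold (log2 change −1.87 ± 0.17, limma adjusted p = 0.000198). CAD4, a cinnamyl alcohol dehydrogenase that makes monolignols, measured 39.5 and 37.6 RPKM against 11.4 and 10.2 RPKM. HCT, the hydroxycinnamoyl transferase at the branch to guaiacyl units, measured 74.7 and 76.3 RPKM against 27.8 and 22.3 RPKM, a fall of 2.99-fold. The GFP libraries of these genes lay close together and well above both DIG1 libraries. PAL1, the phenylalanine ammonia-lyase at the entry of the pathway, fell 2.27-fold, and MYB58, a MYB activator of lignin genes, fell from 2.83 and 2.26 RPKM to 0.915 and 0.454 RPKM. NAC076, a vessel-related NAC factor, measured 1.68 and 1.60 RPKM in GFP and 0.335 and 0.488 RPKM in DIG1, and its call was kept only without DIG1 replicate 2. Dirigent proteins, which steer the coupling of monolignol radicals, had 7 of 14 members lower (median −0.44), but 0 to 5 in the fits without a library (0 without GFP replicate 2 or DIG1 replicate 2). The xylem markers XCP1, XCP2 and IRX3 did not pass the test, with log2 changes of −0.36, −0.19 and −0.60. In whole seedlings, fewer cells of a type and less RNA per cell cannot be told apart.

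Glucosinolate and camalexin genes, which make the sulphur-rich defence compounds of the cabbage family, were also lower: 13 of 35 fell (37.1%) and 0 rose, with a median log2 change of −0.52. The count hung on 2 libraries, with 2 without GFP replicate 2 and 3 without DIG1 replicate 2, against 11 without either of the others. MYB34, an activator of indole glucosinolate genes, fell 2.97-fold, to 8.97 and 5.53 RPKM in DIG1 (limma adjusted p = 0.0013). BGLU34, a myrosinase, measured 7.35 and 8.11 RPKM against 2.59 and 3.07 RPKM. CYP79B2 and CYP79B3, which turn tryptophan into indole-3-acetaldoxime, fell 3.21-fold and 1.91-fold, and in GFP their 2 libraries were themselves apart, at 1.97 and 5.34 RPKM and at 4.00 and 7.43 RPKM. CYP81F4, which modifies indole glucosinolates, and the sulfotransferase gene SOT18 fell 2.76-fold and 2.72-fold. Calls of CYP81F4 and SOT18 were lost in 2 of the 4 fits without a library, and those of CYP79B2 and CYP79B3 were lost in 3.

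Within the plastid programme the pattern ran past chlorophyll synthesis. Of 20 genes for carotenoids and their isoprenoid precursors, 5 fell (2 to 4 without a library) and 0 rose, with a median log2 change of −0.19. LUT2, the lycopene epsilon-cyclase that opens the branch to lutein, measured 31.5 and 34.1 RPKM in GFP and 8.44 and 9.24 RPKM in DIG1. That is a 3.56-fold fall (log2 change −1.83 ± 0.12, limma adjusted p = 3.2e-05). PSY, phytoene synthase, fell from 75.8 and 64.5 RPKM to 23.8 and 33.4 RPKM. Both are major control points of the pathway. In tetrapyrrole synthesis 5 of 29 genes fell (4 in each fit without a library, median −0.11): besides PORA and PORB they were CHLH, a subunit of magnesium chelatase, HEMA1, glutamyl-tRNA reductase, and PORC, another protochlorophyllide oxidoreductase, which lost its call in those fits. CHLH measured 279 and 299 RPKM in GFP and 110.4 and 128 RPKM in DIG1.

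Of 19 carbon fixation genes 8 fell and 1 rose (median −0.48), with 1 to 6 lower in the fits without a library (1 without GFP replicate 2). CP12-2, a redox-controlled linker protein of the Calvin cycle, measured 35.0 and 31.0 RPKM in GFP and 9.30 and 13.9 RPKM in DIG1, a 2.82-fold fall. Its relative CP12-3 was the gene that rose, from 11.0 and 13.2 RPKM to 16.8 and 20.2 RPKM (limma adjusted p = 0.0305), a call lost in all 4 fits without a library. FD1, a leaf ferredoxin, fell 2.21-fold from 434 and 481 RPKM to 197 and 216 RPKM. In photorespiration, GGT1, a peroxisomal glutamate:glyoxylate aminotransferase, fell 1.75-fold from 219 and 207 RPKM to 116 and 127 RPKM. Antenna genes counted 6 lower of 21 (2 to 9, lowest without GFP replicate 2, median −0.58), led by LHCB2.3, which fell 5.46-fold. Reads of near-identical antenna and small-subunit genes can be shared between copies, so single members of those families are uncertain. The genes of the plastid's own genome had a lower median, at −0.33 over 50 genes, and 0 of them passed the test by limma, or 6 without DIG1 replicate 2. Their summed level was 1117 and 1262 RPKM in GFP, 729 RPKM in DIG1 replicate 1 and 1181 RPKM in DIG1 replicate 2, so that only replicate 1 lay below both GFP libraries. At an unadjusted p under 0.05, 5 of the plastid-encoded genes were lower and 0 higher. The libraries were made from polyA RNA, and how that selection bears on the measured levels of plastid-encoded genes was not tested. None of 8 chlorophyll breakdown genes passed either threshold.

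**Figure D2:**
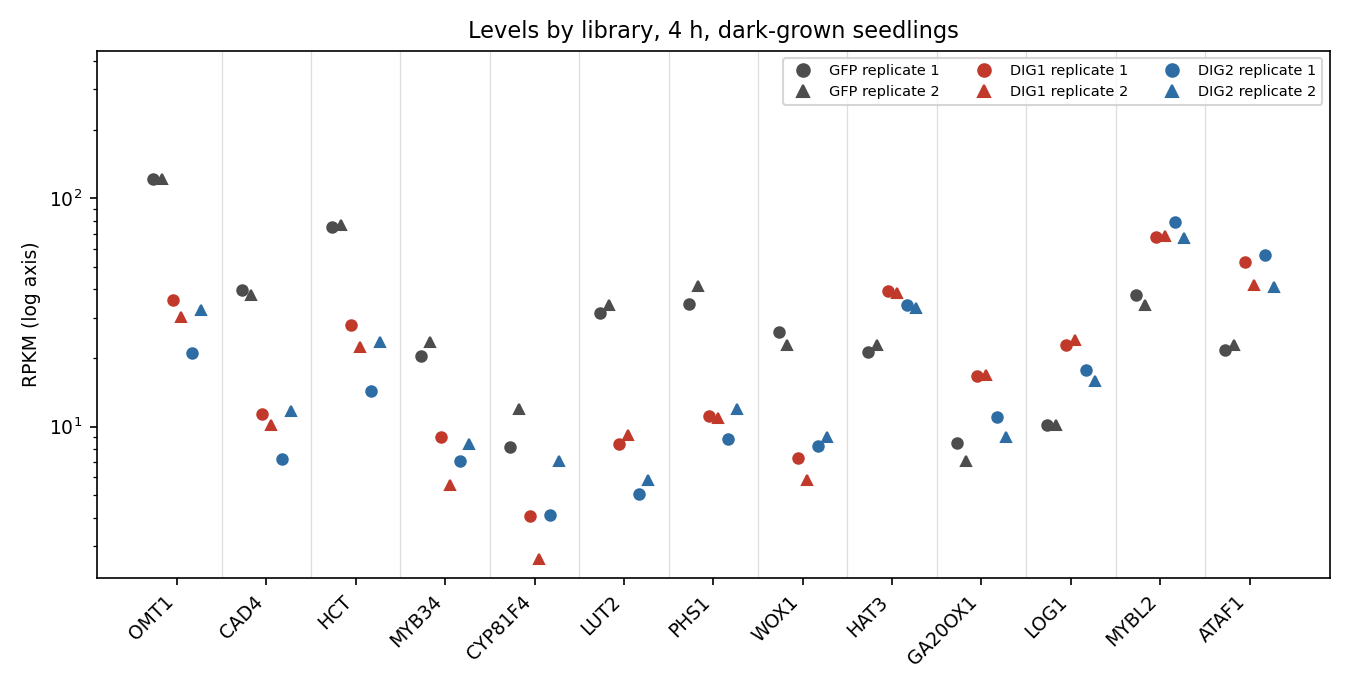
RPKM of 13 genes in each of the 6 libraries of the 4 h experiment (log axis), with GFP in grey, DIG1 in red and DIG2 in blue, circles for replicate 1 and triangles for replicate 2. OMT1 stands at 121 and 122 in GFP and at 35.8 and 30.3 in DIG1, and the DIG1 points lie above the GFP points for HAT3, GA20OX1, LOG1, MYBL2 and ATAF1.

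Of 41 genes for light receptors and signalling 7 fell (3 to 6 without a library) and 4 rose (1 to 3), with a median log2 change of 0.02. PIL1, a bHLH factor of shade response, measured 25.9 and 25.1 RPKM in GFP and 12 and 12.6 RPKM in DIG1. HFR1, an atypical bHLH factor that restrains the interacting factors, fell 1.54-fold. PKS4, a phytochrome kinase substrate that acts in phototropism, rose from 18.3 and 18.4 RPKM to 30.4 and 37.5 RPKM (1.81-fold, limma adjusted p = 0.00157). HY5, the bZIP factor that promotes greening, rose from 12.6 and 17.5 RPKM to 25.9 and 26.1 RPKM, and the call was kept only without GFP replicate 2. Of the B-box family, zinc finger factors that act with HY5 or against it, 10 of 22 measured fell (7 to 10) and 0 rose (median −0.32). Apart from BBX23 and BBX17 they included BBX14, which measured 94.2 and 98.4 RPKM against 15.6 and 18.8 RPKM, and BBX28, which measured 47.5 and 50.6 RPKM against 18.5 and 17.5 RPKM. COL1, a relative of the flowering regulator CONSTANS, fell 2.15-fold. GNC, a GATA factor that raises chloroplast number, fell 1.95-fold from 24.0 and 22.8 RPKM to 14 and 9.90 RPKM.

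Of 23 XTH genes, which loosen or remodel the wall, 9 fell (5 to 7 without a library) and 1 rose, with a median log2 change of −0.33. XTH32 measured 19.7 and 21.3 RPKM in GFP and 6.41 and 7.41 RPKM in DIG1, a 2.84-fold fall. XTH31, which cuts xyloglucan by hydrolysis, measured 168 and 189 RPKM against 67.6 and 73.6 RPKM. The member that rose was XTH28, from 27.7 and 27.5 RPKM to 41.6 and 47.1 RPKM (1.59-fold, limma adjusted p = 0.00408). Alpha-expansins, which loosen the wall without cutting it, had 4 of 17 higher (1 to 2 without a library) and 3 lower (2 without GFP replicate 1 and 0 in the other fits), with a median of 0.08. EXPA8 measured 236 and 287 RPKM in GFP and 395 and 390.2 RPKM in DIG1, but its call was lost in all 4 fits without a library. Arabinogalactan and fasciclin-like proteins, glycoproteins of the cell surface, had 6 of 36 members lower (3 to 6) and 0 higher (median −0.37). FLA5 fell from 2.88 and 2.43 RPKM to 0.381 and 0.346 RPKM and AGP2 from 93.7 and 87.3 RPKM to 33.1 and 28.6 RPKM. The cellulose synthase genes CESA1 and CESA3 were 1.37-fold and 1.36-fold lower, and each call was lost in all 4 fits without a library.

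Genes of the epidermis, trichomes and root hairs were lower in 13 of 37 cases (35.1%) and higher in 0 (median −0.44), with 3 to 10 in the fits without a library (3 without GFP replicate 2). RSL4, the bHLH factor that sets root hair length, measured 4.83 and 6.62 RPKM in GFP and 1.4 and 1.03 RPKM in DIG1. TCL2 and ETC1, single-repeat MYB proteins that repress trichomes, were both lower, and ETC1 fell 2.79-fold from 5.62 and 6.27 RPKM to 1.73 and 1.89 RPKM, a call kept only without GFP replicate 1. HEC1 and HEC2 stand on this list but are known as bHLH regulators of the fruit, meristem and light response, and HEC2 was no longer called when GFP replicate 2 or DIG1 replicate 2 was dropped. The root hair markers fixed for the tissue check numbered 5, of which 3 were measured: RSL4 fell, EXPA7 fell with a call kept only without GFP replicate 1, PRP3 did not pass the test, and their summed level was 24.5 and 38 RPKM in GFP against 13.4 and 13.7 RPKM in DIG1. No epidermal marker out of 5 passed the test, and ATML1, the epidermal identity factor, measured 39.0 and 47.3 RPKM against 48.1 and 46.2 RPKM. How far the number of root hairs enters the result was not tested. Of the other marker lists, KAT1 fell among 6 guard cell genes, and no gene passed the test among markers of the stomatal lineage, trichome, root cap, xylem, phloem or shoot meristem.

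Most genes of each hormone list were not called, but several of these lists had larger shares of called genes than all genes did. Among hormone lists, gibberellin had the largest share of higher genes and ethylene the largest share of lower genes. In the gibberellin list 25% rose, against 3.01% of all genes, and in the ethylene list 29.6% fell, against 5.54%. Gibberellin genes rose in 6 of 24 cases (25%, 3 to 4 without a library) and fell in 1, with a median log2 change of 0.14. GA20OX1, a gibberellin 20-oxidase late in synthesis, measured 8.49 and 7.07 RPKM in GFP and 16.7 and 16.8 RPKM in DIG1 (2.09-fold, limma adjusted p = 0.0017). RGL3, a DELLA repressor, rose 1.78-fold from 5.79 and 5.78 RPKM to 11.9 and 9.57 RPKM. GA2OX6, which inactivates gibberellin, fell 2.32-fold from 9.96 and 9.12 RPKM to 3.23 and 4.53 RPKM. KO and GA20OX2, also on the synthesis route, were 1.45-fold and 2.08-fold higher, but each call was lost in 2 of the 4 fits. Among the ethylene genes 8 of 27 fell (4 to 6) and 0 rose (median −0.26). HLS1, an acetyltransferase-like protein needed for the apical hook, measured 15.5 and 14.6 RPKM against 7.18 and 8.22 RPKM. ARL, a growth regulator, measured 80.3 and 72.1 RPKM against 35.5 and 40.5 RPKM, and EDF3, an AP2/B3 factor in the ethylene pathway, fell 2.68-fold.

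Auxin genes were mixed. In the full fit 9.09% of the Aux/IAA, GH3 and auxin receptor genes rose and 13.6% fell. Of the auxin synthesis and transport genes 6.25% rose and 18.8% fell. IAA20 and IAA6, repressors of the Aux/IAA family, fell 3.66-fold and 3.77-fold, and IAA20 measured 48.4 and 44.8 RPKM in GFP and 13.6 and 11.2 RPKM in DIG1. DFL1, also known as GH3.6, which conjugates auxin to amino acids, rose from 35.9 and 38.4 RPKM to 52.7 and 59.8 RPKM. YUC8, an auxin synthesis enzyme, fell 2.22-fold from 13.6 and 13.4 RPKM to 4.69 and 7.15 RPKM, and LAX3, an uptake carrier, fell 1.78-fold. Of 42 SAUR genes, small auxin-induced growth regulators, 5 rose (1 to 3) and 2 fell (0 to 1), with a median of 0.18, and SAUR36 rose 1.65-fold. The cytokinin list lay near the shares of all genes, with 2.94% of 34 genes higher and 5.88% lower. In that list IPT3, which makes the hormone's precursor, fell 2.64-fold from 4.31 and 5.14 RPKM to 1.68 and 1.28 RPKM. LOG1, which activates it, rose 2.24-fold from 10.2 and 10.2 RPKM to 22.9 and 24.0 RPKM (limma adjusted p = 0.000248). Both LOG1 libraries of DIG1 lay well above GFP.

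In the ABA core pathway 3 of 24 genes for receptors, phosphatases and kinases fell (2 to 3) and 1 rose (0 to 1), with a median log2 change of 0.02. RCAR3, a PYR/RCAR receptor, measured 87.8 and 85.1 RPKM in GFP and 41 and 42.8 RPKM in DIG1 (2.05-fold, limma adjusted p = 0.000124). SNRK2.5, an osmotic stress kinase, measured 90.9 and 105 RPKM against 41.5 and 44.4 RPKM, a 2.26-fold fall. ABI1, a PP2C phosphatase that holds the pathway off, was 1.55-fold lower, with GFP libraries at 36.4 and 53.4 RPKM and a call kept only without GFP replicate 1. Of the bZIP factors 6 of 36 fell (2 in each fit without a library) and 1 rose (median −0.02). Beyond ABF3 they included bZIP3, which fell 2.33-fold, and ABF2, which measured 16.1 and 15.9 RPKM against 10.7 and 11.3 RPKM and lost its call in those fits. Of 36 ABA response factors and their partners, some of them also bZIP factors, 7 fell (3 to 6) and 4 rose (0 to 2), with a median of 0.04. Among 32 genes of cold, touch and wounding 3 fell (2 to 4) and 2 rose (1 to 2), with a median of −0.06. On that list RD29A, induced by cold and drought, rose from 14.2 and 17.1 RPKM to 31.7 and 32.7 RPKM, while COR6.6, a cold-regulated gene, fell from 15.0 and 20.7 RPKM to 3.07 and 3.16 RPKM.

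Of 31 genes for nitrate and ammonium assimilation 5 fell (3 to 4) and 4 rose (1 to 2), with a median log2 change of −0.08. The nitrate reductases NIA1 and NIA2 measured 157 and 205 RPKM and 175 and 238 RPKM in GFP, and 82.5 and 88.3 RPKM and 88.8 and 100.5 RPKM in DIG1. They fell 2.09-fold and 2.16-fold. LBD38, a repressor of nitrogen-responsive genes, fell 1.62-fold. On the uptake side NRT3.1, the partner of high-affinity nitrate transporters, rose from 33.4 and 34.3 RPKM to 56.2 and 57.2 RPKM (1.67-fold, limma adjusted p = 0.00144). SIR, sulfite reductase, fell 1.75-fold from 101 and 98.5 RPKM to 54.8 and 59.0 RPKM.

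Starch turnover genes were lower in 7 of 39 cases (2 to 6, lowest without GFP replicate 2) and higher in 1, with a median log2 change of −0.19. PHS1, a plastid starch phosphorylase, measured 34.5 and 41.3 RPKM in GFP and 11.1 and 10.9 RPKM in DIG1, a 3.32-fold fall (limma adjusted p = 0.000139). SEX1, the glucan water dikinase that starts starch breakdown, measured 21.8 and 24.9 RPKM against 10.7 and 10.2 RPKM. Genes of dark starvation and branched-chain amino acid breakdown were higher in 5 of 26 cases (1 to 4, lowest without GFP replicate 2) and lower in 1 (median 0.11). DIN2, a beta-glucosidase induced by darkness and sugar hunger, rose 2.26-fold from 134 and 100.4 RPKM to 268 and 257 RPKM. BCE2, DIN4 and MCCA, enzymes of leucine, isoleucine and valine breakdown, were 1.38-fold to 1.45-fold higher, and of the 4 fits without a library BCE2 lost its call in 2, DIN4 in 3 and MCCA in 4. PMT5, a plasma membrane polyol and sugar transporter, rose 1.87-fold from 33.8 and 35.2 RPKM to 67.5 and 62.8 RPKM.

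Chaperones of the endoplasmic reticulum, which fold secreted proteins, were lower in 9 of 32 cases and higher in 0 (median −0.26), but this count rested on single libraries: dropping GFP replicate 1 left 6, GFP replicate 2 left 0, DIG1 replicate 1 left 7 and DIG1 replicate 2 left 1. BIP2, the ER HSP70, measured 77.8 and 84.7 RPKM in GFP and 41.5 and 32.7 RPKM in DIG1 (2.19-fold, limma adjusted p = 0.00813), no longer called when GFP replicate 2 or DIG1 replicate 2 was dropped. BIP1 and BIP2 are near copies and can share reads. UDP-glycosyltransferases, which attach sugars to hormones and secondary metabolites, rose in 8 of 39 cases (1 to 4) and fell in 6 (1 to 4), with a median of 0.16. UGT85A5 rose 2.62-fold from 1.81 and 1.83 RPKM to 5.34 and 5.81 RPKM. UGT78D1, a flavonol rhamnosyltransferase, measured 8.28 and 7.92 RPKM against 3.81 and 3.76 RPKM, a 2.01-fold fall whose call was lost without either GFP library. TT7, the flavonoid 3′-hydroxylase, rose 2.45-fold from 1.74 and 1.41 RPKM to 3.80 and 5.45 RPKM.

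Among transcription factors, homeobox genes moved in both directions, 7 up (2 to 3) and 7 down (2 to 4) of 59 (median −0.03). WOX1, which shapes the leaf blade, measured 26.1 and 22.9 RPKM in GFP and 7.28 and 5.85 RPKM in DIG1, a 3.55-fold fall (limma adjusted p = 6.49e-05). HAT3 and HAT1, class II HD-ZIP factors of shade and leaf polarity, rose 1.76-fold and 1.72-fold, and HAT3 measured 21.2 and 22.7 RPKM against 39.1 and 38.7 RPKM. In the NAC family 7 of 37 fell (1 to 4) and 2 rose in every fit (median −0.03). ATAF1, a stress and starvation regulator, rose from 21.6 and 22.8 RPKM to 52.7 and 41.9 RPKM, and NAC047, tied to leaf movement and senescence, fell 3.4-fold from 19.3 and 16.5 RPKM to 4.85 and 4.91 RPKM. MYBL2, a repressor of anthocyanin genes, rose 1.89-fold from 37.9 and 34.0 RPKM to 67.5 and 68.7 RPKM. Of 8 growth-regulating factors 3 were called, with GRF2 down 2.33-fold, GRF7 down 5.04-fold and GRF3 (AT2G36400) up 1.56-fold, a call lost in all 4 fits without a library. GRF7 measured 19.7 and 19.6 RPKM in GFP and 7.24 and 1.56 RPKM in DIG1, a call that needed GFP replicate 2. WRKY7 fell 2.34-fold and WRKY15 rose 1.90-fold, the only 2 of 40 WRKY genes past the threshold.

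Large housekeeping families had medians near 0. Of 329 ribosomal protein genes 1 fell (1 to 7, highest without DIG1 replicate 1), 0 rose and the median log2 change was −0.07. The gene was AT5G02440, annotated as a 60S ribosomal protein L36, which measured 35.9 and 36.4 RPKM in GFP and 19.3 and 16.4 RPKM in DIG1. By limma at an adjusted p under 0.05, 0 genes passed among 41 proteasome subunits, 43 histones, 57 RNA helicases, 35 DNA replication genes, 23 translation factors and 16 tubulins. Their medians lay between −0.16 and 0.07. At an unadjusted p under 0.05 there were 5 lower proteasome genes, 2 higher and 4 lower histones, 1 higher and 1 lower replication gene, 1 higher and 4 lower tubulins and 0 helicases or translation factors. Voom on recovered reads scaled by listed totals called 1 histone, 1 replication gene and 1 tubulin higher and 1 tubulin lower. The proteasome ATPase RPT5A, for example, measured 87.0 and 92.7 RPKM in GFP and 84.4 and 84.9 RPKM in DIG1. TUA6, an alpha-tubulin, measured 669 and 719 RPKM against 494 and 374 RPKM and missed the threshold (limma adjusted p = 0.0598). Of 160 pentatricopeptide repeat genes, which process organelle RNA, 1 rose and 1 fell.

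The DIG2 line gave a direct comparison from the same fit, with 108 genes (0.622%) higher and 302 (1.74%) lower in DIG1 than in DIG2. Of the 962 genes that fell against GFP, 149 were lower in DIG1 than in DIG2 and 20 were higher, and of the 522 that rose 20 were higher and 11 lower. The 2 contrasts share the DIG1 libraries, so these counts are not independent of each other. Of 22 B-box genes 6 were lower and 2 higher in DIG1. Dropping DIG1 replicate 1 left 20 higher and 106 lower over all genes, and dropping DIG1 replicate 2 left 35 higher and 88 lower. BBX28 measured 31.3 and 30.8 RPKM in DIG2 and 18.5 and 17.5 RPKM in DIG1 (log2 difference −0.77, limma adjusted p = 0.00445). COL1 measured 11.2 and 10.9 RPKM in DIG2 and 6.19 and 7.20 RPKM in DIG1. Both DIG1 values lay below both DIG2 values.

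Among light receptors and signalling genes 7 of 41 were lower in DIG1 than in DIG2 and 0 higher. PIL1 measured 25.6 and 25.3 RPKM in DIG2, the range of GFP, against 12 and 12.6 RPKM in DIG1 (limma adjusted p = 0.0015). PHOT1, a blue light receptor, measured 343 and 355 RPKM in DIG2 and 199 and 204 RPKM in DIG1, and its call against GFP needed GFP replicate 2. PHYA, the far-red receptor, measured 379 and 391 RPKM in DIG2 and 234 and 249.7 RPKM in DIG1, with GFP at 341 and 369 RPKM, and its call against GFP was kept only without DIG1 replicate 2. XTH15 and XTH31 differed in the same way, although the call of XTH15 against GFP needed GFP replicate 2, and so did HB52, a homeobox gene at 63.0 and 62.9 RPKM in DIG2 and 31.1 and 38.9 RPKM in DIG1. The reverse order was seen for HEMA1, at 52.4 and 52.5 RPKM in DIG2 and 67.2 and 73.6 RPKM in DIG1, and for LUT2, at 5.07 and 5.84 RPKM in DIG2. COR6.6 and ELIP2 were also higher in DIG1 than in DIG2, and ELIP2, an early light-induced protein, measured 7.31 and 7.53 RPKM against 2.56 and 2.66 RPKM, with GFP at 19.7 and 20.7 RPKM. In the dark starvation list 5 of 26 genes were lower in DIG1 than in DIG2 and 0 higher. DIN2 measured 498 and 422 RPKM in DIG2 against 268 and 257 RPKM in DIG1. Lignin genes showed no such difference past the threshold in any of 37 cases. OMT1 differed by a log2 value of 0.33 (limma adjusted p = 0.361), which does not show that the lines act alike.

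**Figure D3:**
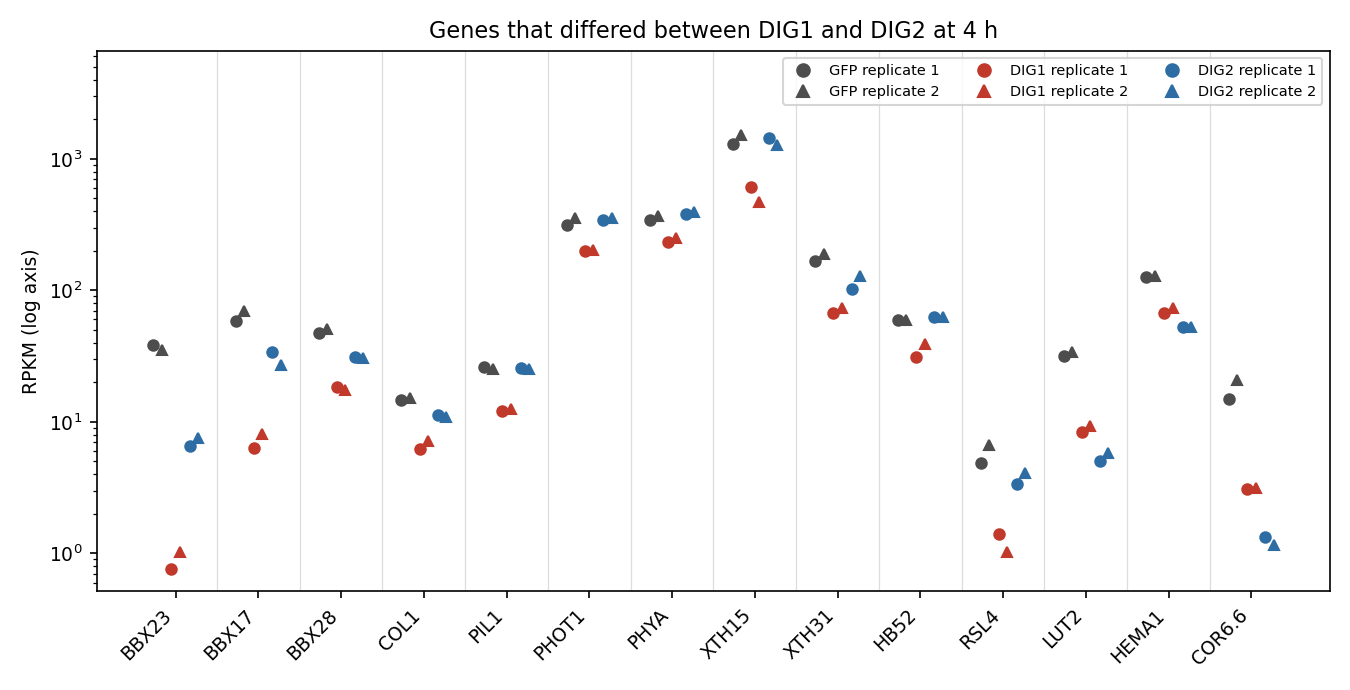
RPKM of 14 genes with a limma adjusted p under 0.05 between DIG1 and DIG2, in each of the 6 libraries (log axis), with GFP in grey, DIG1 in red and DIG2 in blue, circles for replicate 1 and triangles for replicate 2. For PIL1, PHOT1, PHYA, XTH15 and HB52 the blue points lie near the grey ones and the red points below both; for LUT2, HEMA1 and COR6.6 the blue points are lowest.

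The DIG1 replicates correlated at a Pearson r of 0.987 across genes, against 0.992 for GFP and 0.99 for DIG2, and 91 genes differed by over 2-fold between them, against 41 and 78. Of these 61 were higher in replicate 1, among them 5 dehydrin and LEA genes, which protect cells from drying. RAB18 measured 242 RPKM in replicate 1 and 3.23 RPKM in replicate 2, with GFP at 5.58 and 2.75 RPKM. LEA18 measured 79.6 and 4.95 RPKM, with GFP at 6.55 and 0.498 RPKM. LEA4-5 measured 93.7 and 4.07 RPKM, and AtLEA4-1 23.4 and 1.28 RPKM. DI21, a drought-induced gene, measured 200.2 and 52.8 RPKM, with GFP at 66.4 and 54.6 RPKM. AT3G02480, annotated as a LEA protein but not on that list, had the same order, at 188 and 3.98 RPKM. Of 9 listed seed markers, 3 were measured and all 3 were over 2-fold higher in replicate 1. ICL, isocitrate lyase of the glyoxylate cycle, measured 1764 and 586 RPKM, with GFP at 716 and 1037 RPKM. The genes named here were picked after their values were seen, and none of them passed the test against GFP. Without DIG1 replicate 2, which leaves replicate 1 alone, 5 of 13 dehydrin and LEA genes were called higher, against 0 in the full fit. Another 30 genes were higher in replicate 2, and 12 of them are encoded in the plastid. Against GFP 5 of the 61 (8.20%) and 2 of the 30 (6.67%) were called, near the 8.54% of all genes.

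**Figure D4:**
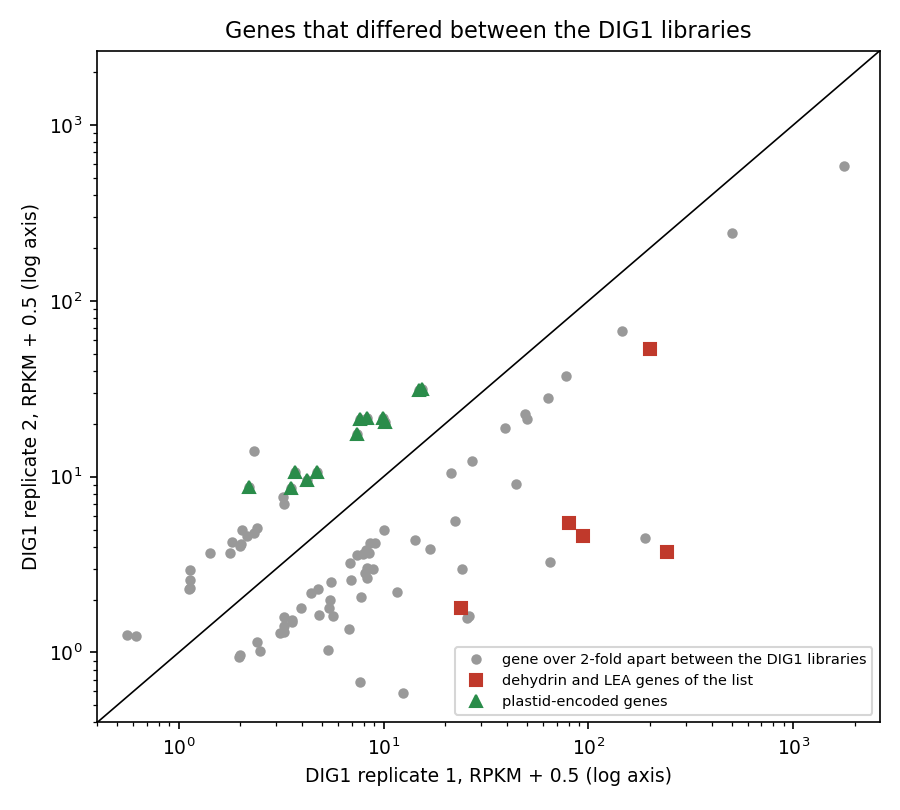
RPKM + 0.5 of the 91 genes that differed by over 2-fold between the DIG1 libraries, replicate 1 on the horizontal and replicate 2 on the vertical axis (both log axes); the line marks equal values. The red squares are the 5 dehydrin and LEA genes of the list, to the right of the line at 23.4 to 242 RPKM in replicate 1, and the green triangles are 12 plastid-encoded genes, above the line.

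In light-grown seedlings of 10 d, which were separate libraries in a separately normalized table, far more genes differed between DIG1 and GFP: 31.9% of 17433 genes rose and 31.2% fell. Of the 962 genes that fell at 4 h, 838 were measured at 10 d, and 655 of these (78.2%) were lower there, with 51 (6.09%) higher. Of the 522 that rose at 4 h, 488 were measured, 269 (55.1%) were higher and 87 lower. Genes with no call at 4 h were lower in 27.2% and higher in 33.2% of cases. Age, light, dose and length of treatment all differ between the tables, and their parts cannot be told apart. By list, 30 of 35 lignin genes were lower at 10 d (median log2 change −2.65), as were 26 of 34 glucosinolate genes (−1.70) and 15 of 19 carbon fixation genes (−1.64). Dark starvation genes were higher in 22 of 25 cases (1.79), and DIN2 had a log2 change of 5.96. Other lists were mixed at 10 d or moved against their 4 h values. NAC genes were higher in 20 of 33 cases and lower in 5 (0.59), and ethylene genes were higher in 8 of 24 and lower in 4 (0.03). Of 28 tetrapyrrole genes 8 were higher and 9 lower (0.04), and of 21 B-box genes 6 were higher and 9 lower (−0.16). Alpha-expansins were lower in 11 of 17 cases and higher in 1 (−0.95), and plastid-encoded genes were higher in 23 of 35 and lower in 0 (1.00). Some genes went the other way: NIA1, lower at 4 h, was higher at 10 d with a log2 change of 3.19, and ECS1, a gene linked to disease resistance that rose 2.66-fold at 4 h, had a log2 change of −3.99.

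**Figure D5:**
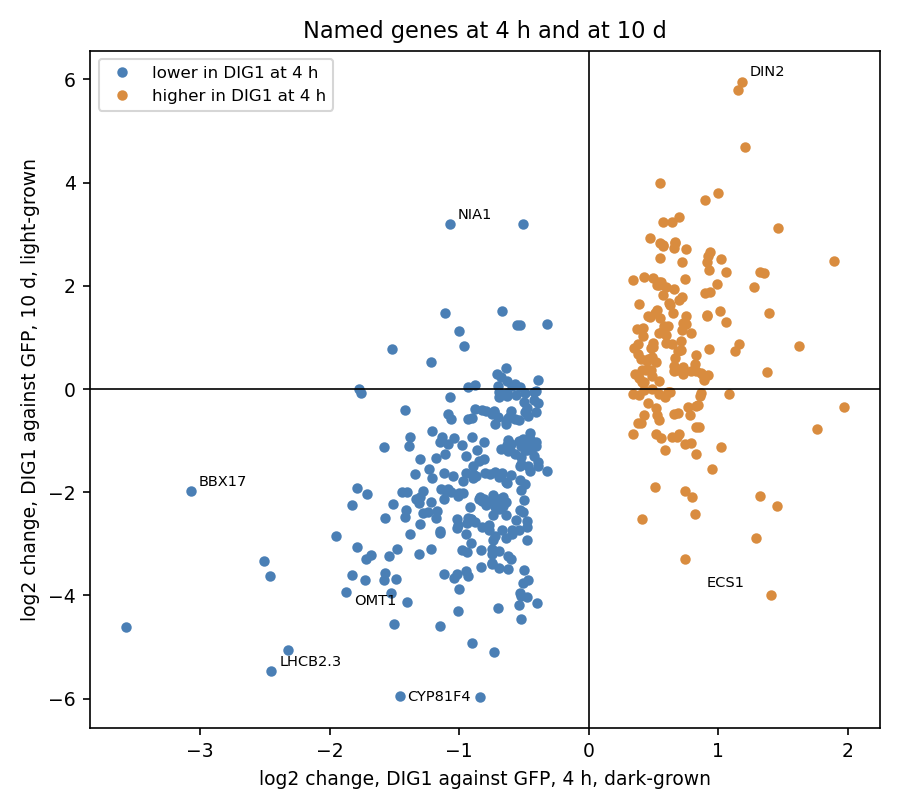
Log2 change of DIG1 against GFP at 4 h in the dark (horizontal axis) and at 10 d in the light (vertical axis) for 431 called and named genes measured in both tables, with genes lower at 4 h in blue and higher in orange; each table has its own GFP libraries. Of 262 blue points 239 lie below 0 on the vertical axis, and of 169 orange points 120 lie above it, with NIA1 and ECS1 among the exceptions. DIG1 itself is not drawn, and a symbol shared by several loci is drawn for a single locus.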

How the data were processed

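PolyA RNA of whole dark-grown seedlings was sequenced in 6 libraries at 4 h, 2 each of GFP, DIG1 and DIG2. The deposited tables hold RPKM per gene and, for each comparison of the authors, a log2 fold change and an FDR-adjusted p-value, per the file headers. HTSeq 0.5.4, edgeR 3.6.2 and the build TAIR10 are named in the submitters' processing notes, and the aligner is not given in the sources used here. Counting of reads shared by near-identical or overlapping genes is not described either. No deposited counts were used. Whole reads were recovered from the RPKM steps for 99.94% of genes (17360 of 17371, tolerance 0.001).

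The main test was limma 3.58.1 in R 4.3.3 on log2(RPKM + 0.5), all 17371 genes, 6 libraries, empirical Bayes with a variance trend, two-sided, Benjamini-Hochberg over all genes, threshold 0.05. Fold changes are on that scale and understate the change of low genes. The planned edgeR test was not run, since the files hold RPKM, and voom on recovered reads took its place. On simulated data of 17371 genes for this comparison, 85.8% of 2-fold and 99.4% of 4-fold changes were recovered and 5.99% of calls were false. The noise was drawn from the variance model of the fit itself. Only 2-fold and 4-fold changes were put in, and only in genes above the lowest levels. The rates therefore do not measure the error among the real calls, most of which were under 2-fold. Annotation came from TAIR10.1 (RefSeq), whose nuclear chromosome lengths equal those of TAIR10, and it matched 17305 genes.

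Genes and lists were chosen with earlier results of these data known. Named genes were the DIG genes, the 12 largest changes in each direction, up to 5 called members of each list in each direction, 10 changes under 2-fold in each direction, the 2 highest members of a list without calls, and markers. RAB18, LEA18, LEA4-5, AtLEA4-1, AT3G02480, ICL, DI21 and AT2G30550 were picked after their values were seen. The light-grown table of 10 d was fitted separately.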

Additional observations from a re-analysis of the deposited data

How the results depend on the processing

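The counts against GFP (522 higher, 962 lower) stayed within 1.5 times under pseudocounts of 0.1 and 1, a filter at a mean of 1 RPKM, median ratio rescaling, a fit of only the 4 libraries and voom with the authors' library sizes. Without a variance trend 329 genes were higher than in GFP, 119 list members were higher (189 in the main fit), 38 genes were higher than in DIG2 (108) and 111 lower (302). With voom on recovered reads and totals of the listed genes as library sizes, which shifts the median log2 change of all genes to 0.08, 937 genes were higher than in GFP, 313 list members were higher and 404 genes were higher than in DIG2. Leaving out each library in turn gave 141 to 536 genes higher than in GFP and 335 to 1043 lower, 62 to 192 list members higher and 138 to 395 lower, 20 to 87 genes higher than in DIG2 and 88 to 207 lower, and 179 to 464 of 487 named genes past the threshold. Where this left a line with 1 library, that library was assumed to vary like the others. With the replicate number as a block, 580 genes were higher and 1050 lower, and 12 named genes lost the call; deviations of same-numbered libraries correlated at 0.0166, 0.163 and −0.00882, so the numbers were not taken to pair the samples. No called named gene changed direction in any setting tried. Leaving out a library could not have reversed one, since both DIG1 libraries lay on the same side of both GFP libraries. The edgeR alternative was not run, and a fit of only the 4 GFP and DIG1 libraries gives no contrast with DIG2. Of the genes in the authors' deposited table, 1948 had an FDR under 0.05, 719 higher and 1229 lower, and 1446 of the 1484 genes called here were among them with the same sign. The voom and DIG2 leave-out settings were chosen after seeing the data. DIG1 had the shallowest libraries, and the part of depth in these counts was not tested.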

Other observations

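Beyond the genes described above, AT2G30550, annotated as an alpha/beta-hydrolase, measured 21.3 and 21.0 RPKM in GFP, 11.9 and 0.0895 RPKM in DIG1 and 12.1 and 17.1 RPKM in DIG2.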
